A study of Mus musculus with 23 samples.

Results

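DNA methylation was followed at the mouse genes Pax3 and Pax7 through all 41 restriction fragments that overlap the windows taken around them, 10 at Pax3 and 31 at Pax7, of 173430 fragments measured genome-wide. Each window holds the gene and a few kilobases on both sides of it, on chromosome 1 for Pax3 and chromosome 4 for Pax7 of the mm9 build. Libraries were made by AIMS-seq, in which SmaI cuts unmethylated CCCGGG sites to blunt ends and XmaI then opens the methylated ones, so that adaptors join and PCR amplifies stretches between neighbouring methylated sites. A level below is the number of reads of a fragment per 1000000 reads of its library (CPM). It rises with the share of molecules methylated at both ends of the fragment, but it is not a percentage of methylation. Each fragment is named by its gene and its length in base pairs.

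Pax3 and Pax7 encode closely related transcription factors with a paired domain and a homeodomain. Pax3 acts in the dermomyotome and in the precursors that migrate into the limb, and Pax7 marks satellite cells, the stem cells that lie against adult muscle fibres and rebuild muscle after injury. Both act upstream of Myf5 and MyoD, and both are shut down when myoblasts leave the cell cycle and form myotubes. CpG islands at the starts of genes are usually free of methylation in normal cells, and developmental regulators are a class whose islands can gain it.

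The 23 libraries fall into 9 groups. Of ESC (embryonic stem cells) there are 4 libraries of 3 lines, namely CGR8 (129Sv, sequenced with a technical replicate that was summed with it for tests), RD1 (129X1/SvJ) and E14Tg2 (129/Ola). Primary myoblasts of C57BL/6J mice came as cultures 21, 26 and 27, taken in proliferation at passage 8 to 10 and as myotubes after 1, 2 and 4 days in differentiation medium. Cells at passage 0 came from cultures numbered 26 and 27. Muscle precursors that had never been cultured gave 1 library from uninjured C57BL/6J muscle and 1 from muscle 3 days after cardiotoxin. Whole skeletal muscle gave 3 libraries, with libraries 1 and 2 of mixed 129Sv/C57BL/6J background and library 3 of C57BL/6J. All carry the label male, apart from E14Tg2, for which no sex is given here. ESC and cultures differ in strain as well as in cell type, and these cannot be told apart. Whole muscle holds the nuclei of fibres and of every other cell of the tissue, and DNA libraries hold no expressed markers against which a tissue label could be checked. Nothing in the labels says whether the myoblast cultures came from separate animals, so p-values measure the spread between these samples.

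Libraries held 6237851 to 14696855 reads. The share of reads from promoter islands differed widely between libraries and moved with several results below. All 23511 autosomal promoter island fragments together held 11397 to 33337 CPM in muscle, 5510 to 6563 CPM in ESC and 11494 to 38277 CPM in culture 27 from the myoblast stage on, against 2916 to 4225 CPM in culture 21. The 2 runs of CGR8 also differed at several Pax fragments, as given with the levels.

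The sequences of the short fragments show which parts of the islands were read. They are given as the mm9 minus strand, in the sense of both genes and 5′ to 3′, with CpG in capitals. A whole fragment opens with ggg and closes with ccc, the remains of the cut sites. Some fragments with reads come before others of the same islands with 2 reads or none. For the Pax3 fragment of 725 bp, which lies upstream of the start (positions -799 to -75), only the 300 bases nearest the start are shown (chr1:78193784-78194083). The Pax7 fragment of 79 bp (chr4:139388428-139388506) lies in an intron inside the promoter island, and that of 219 bp (chr4:139380144-139380362) lies at the edge of an intronic island.
Pax3_725: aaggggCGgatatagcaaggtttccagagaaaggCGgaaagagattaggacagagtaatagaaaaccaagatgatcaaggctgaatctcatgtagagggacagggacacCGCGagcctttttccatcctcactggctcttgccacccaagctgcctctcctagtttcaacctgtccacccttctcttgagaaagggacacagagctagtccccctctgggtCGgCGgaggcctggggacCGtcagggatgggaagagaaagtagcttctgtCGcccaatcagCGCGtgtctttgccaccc
Pax7_79: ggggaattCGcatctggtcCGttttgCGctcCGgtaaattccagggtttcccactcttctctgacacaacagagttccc
Pax7_219: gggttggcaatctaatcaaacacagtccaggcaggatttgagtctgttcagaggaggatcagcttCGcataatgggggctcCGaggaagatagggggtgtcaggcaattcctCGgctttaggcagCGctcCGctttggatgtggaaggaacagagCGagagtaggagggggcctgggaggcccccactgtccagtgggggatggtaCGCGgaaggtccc
Those with 2 reads or none are the 70 bp fragment of Pax3 (chr1:78193208-78193277), which lies inside the gene beyond the fragment over the start, the 273 bp fragment of Pax7 (chr4:139388507-139388779), which adjoins the 79 bp fragment on the side of the start, and the 198 bp and 266 bp fragments of Pax7 (chr4:139379946-139380143 and chr4:139379680-139379945), which follow the 219 bp fragment away from the start.
Pax3_70: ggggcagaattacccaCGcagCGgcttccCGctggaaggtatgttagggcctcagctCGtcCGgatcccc
Pax7_273: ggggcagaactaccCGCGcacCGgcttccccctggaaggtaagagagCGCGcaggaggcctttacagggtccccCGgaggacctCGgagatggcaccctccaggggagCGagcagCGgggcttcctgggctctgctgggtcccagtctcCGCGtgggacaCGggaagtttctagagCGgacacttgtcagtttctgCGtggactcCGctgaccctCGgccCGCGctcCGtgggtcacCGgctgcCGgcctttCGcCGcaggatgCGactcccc
Pax7_198: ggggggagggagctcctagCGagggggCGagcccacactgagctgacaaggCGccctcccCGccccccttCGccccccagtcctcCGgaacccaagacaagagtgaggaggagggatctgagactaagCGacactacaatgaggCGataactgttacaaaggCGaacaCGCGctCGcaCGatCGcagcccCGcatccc
Pax7_266: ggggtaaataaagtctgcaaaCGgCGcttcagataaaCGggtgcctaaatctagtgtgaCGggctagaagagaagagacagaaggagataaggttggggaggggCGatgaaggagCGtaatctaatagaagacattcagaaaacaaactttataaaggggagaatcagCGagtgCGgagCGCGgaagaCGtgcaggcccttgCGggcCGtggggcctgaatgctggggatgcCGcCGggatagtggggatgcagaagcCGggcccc

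Reads were concentrated in few fragments. Of the 41, 10 reached 10 CPM in at least 1 library, 24 stayed under 1 CPM in every library, and 5 had no read at all (Pax3_70, Pax7_409, Pax7_55, Pax7_266 and Pax7_273), which allows each of them up to 0.0127 CPM over the 235463533 reads of all libraries. That limit covers counting error only, since PCR reads without molecular identifiers are not independent molecules. At Pax3 (gene ENSMUSG00000004872.9, chromosome 1, 78097842 to 78193709, minus strand), 5 fragments overlap a CpG island in the promoter window, 3 are island shores and 2 are long gene body fragments of 42395 and 49863 bp. At Pax7 (ENSMUSG00000028736.6, chromosome 4, 139292977 to 139389445, minus strand), 4 lie in promoter islands, 9 in other islands, 3 in shores and 15 outside both.

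At both genes the fragment that covers the start was close to unread, and so was its neighbour inside the gene (Pax3_70 and Pax7_273, 0 reads each). Pax3_506, which spans the start and holds untranslated and coding sequence, had 2 reads in all 23 libraries, and Pax3_725 just upstream of it had 6731. Pax7_7300, which spans the Pax7 start, had 11 reads, but PCR hardly amplifies a fragment of that length. Pax7_273, which lies 666 to 938 bp inside Pax7, is short enough for PCR. Pax7_79, at 939 to 1017 bp, had 362 reads, and the intronic promoter island fragment Pax7_296, at 1018 to 1313 bp, had 11251. Both count as promoter only through a second annotated start inside Pax7, at 139388922. Pax7_296 meets the promoter window of that start only by a few bases at its edge. It still holds most reads of the Pax7 promoter islands, so their sums and shares below are mainly those of this intronic fragment.

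**Figure D1:**
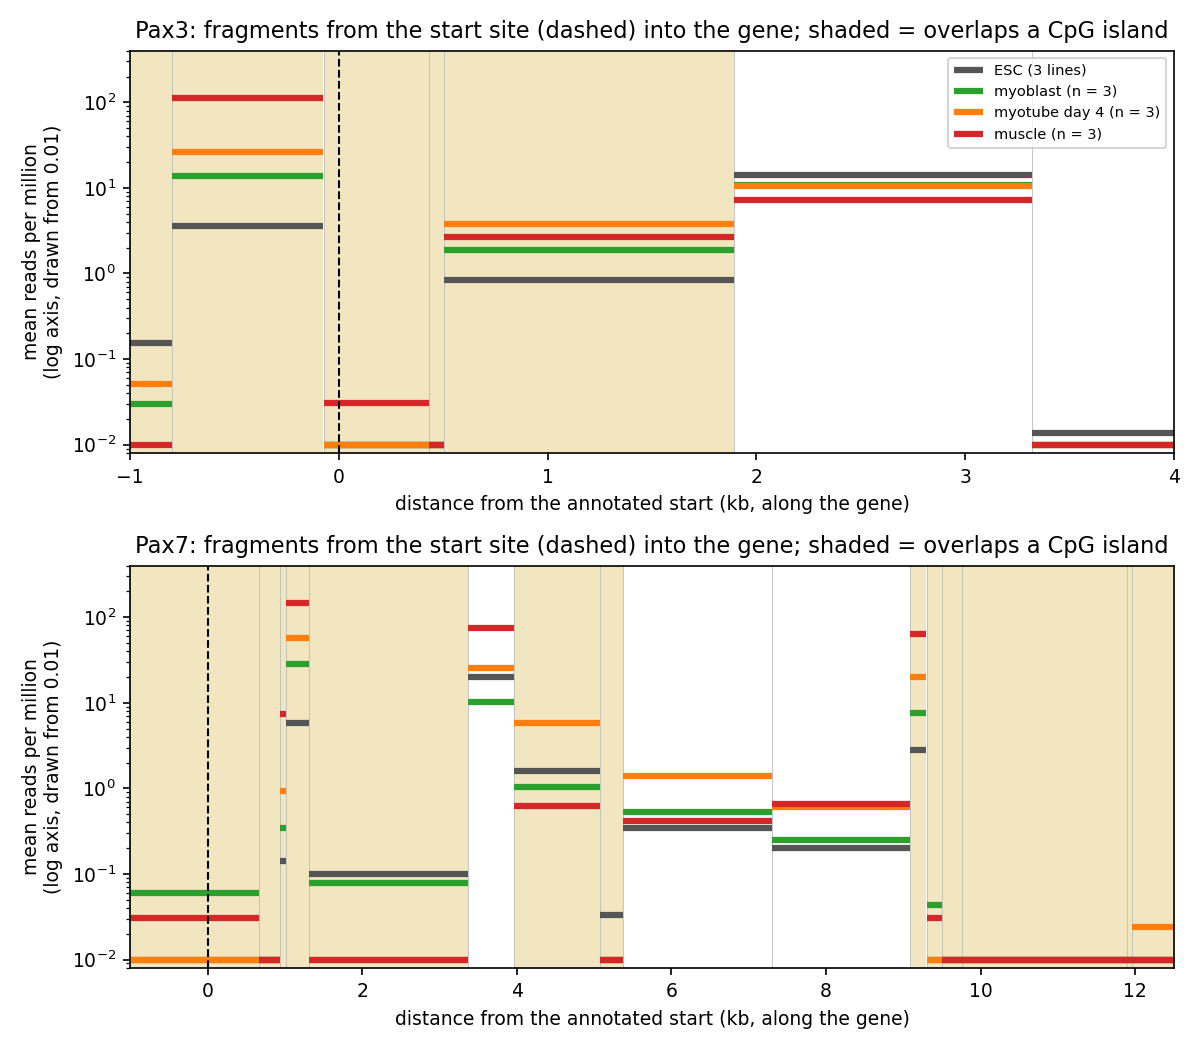
Mean level of each fragment in ESC, myoblasts, day 4 myotubes and muscle (CPM, log axis, values under 0.01 drawn at 0.01, lines can hide one another) against distance from the annotated start in kilobases along the gene; shaded fragments overlap a CpG island. The fragment at the start is near the bottom of both panels, and the muscle line is the top one at Pax3_725 (112 CPM) and Pax7_296 (145 CPM).

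Read and unread island fragments differed in CpG density, which was no part of the choice of fragments. Among the 13 island fragments shorter than 2000 bp, the 6 that reached 1 CPM in some library held 2.48 to 5.06 CpG per 100 bp, and the 7 that did not held 6.02 to 12.73. The groups do not overlap in density, while their lengths do (79 to 1390 bp and 55 to 506 bp). The same trend ran through all 13130 island fragments that were at least 50 bp long and shorter than 2000 bp. Of those with 2 to under 4 CpG per 100 bp, 33.3% reached 1 CPM in some library, and of those with 4 to under 6, 22.7% did, against 7.43% at 6 to under 8, 1.64% at 8 to under 10 and 0.206% at 10 or more. All 6 Pax3 and Pax7 fragments with under 6 were read, and 0 of the 7 with 6 or more.

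**Figure D2:**
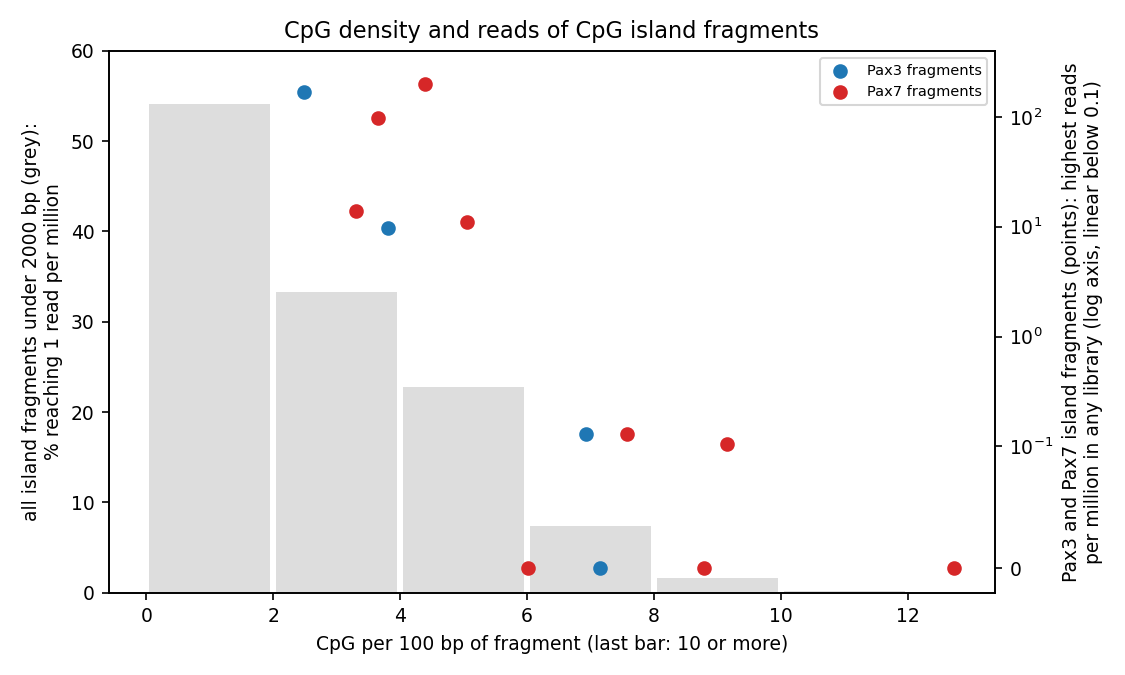
Grey bars give the percentage of all island fragments from 50 bp to just under 2000 bp in length that reached 1 CPM in some library, by CpG per 100 bp (last bar, 10 or more); points give the highest CPM of each Pax3 and Pax7 island fragment on the right axis (log, linear below 0.1). The 6 points at or under 5.06 CpG per 100 bp lie between 9.72 and 198 CPM, and the 7 points from 6.02 on lie at or under 0.130 CPM.

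Pax3_725, the fragment with most reads among the Pax3 promoter islands, had its highest group mean in muscle. This did not hold for every promoter fragment of the gene, since Pax3_1390 had its highest group mean in day 4 myotubes. That mean rests on culture 27 (9.72 CPM, against 0.237 in culture 21 and 1.27 in culture 26). The median of Pax3_1390 was 1.27 CPM at day 4 and 2.19 in muscle. Pax3_725 stood at 125, 169 and 42.1 CPM in muscle libraries 1, 2 and 3. In ESC it stood at 0.680 CPM in CGR8, 3.47 in its technical replicate, 5.95 in RD1 and 3.10 in E14Tg2. Every muscle library was above every ESC library. Among myoblasts, culture 21 had 2.54 CPM, culture 26 9.11 and culture 27 29.9, and the lowest muscle library, which is also the C57BL/6J one, was above all of these. The never cultured precursors had 11.9 CPM from uninjured and 10.5 from injured muscle, within the range of the myoblasts. Passage 0 cells had 11.1 CPM in culture 26 and 0.328 in culture 27.

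Pax7_296, the intronic fragment with most reads among the Pax7 promoter islands, also had its highest group mean in muscle. Pax7_296 stood at 183, 185 and 65.9 CPM in muscle libraries 1, 2 and 3. ESC gave 0.612 CPM in CGR8, 6.32 in its technical replicate, 8.93 in RD1 and 5.37 in E14Tg2. The muscle libraries again did not overlap with ESC, nor with the myoblasts, which had 1.54 CPM in culture 21, 34.4 in culture 26 and 49.3 in culture 27. The never cultured precursors stood between ESC and muscle, at 42.3 CPM (uninjured) and 24.4 (injured), a pair with 1 library each that allows no test of injury. Passage 0 cells had 19.0 CPM in culture 26 and 1.53 in culture 27. Pax7_79 is a short fragment with few reads, at 7.49, 11.0 and 3.68 CPM in muscle and at most 0.306 CPM in any ESC library.

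The lowest ESC values came from a library that its own technical replicate did not match. Between the 2 runs of CGR8 the level differed 5.09-fold at Pax3_725, 5.83-fold at Pax7_219, 10.3-fold at Pax7_296 and 14.4-fold at Pax7_1286, each time with the technical replicate higher. It was 2.82 times higher at Pax7_2582 and lower at Pax3_42395 (3 against 40 reads). At the first 4 of these fragments the reads were 10 against 34, 9 against 35, 9 against 62 and 13 against 125. At Pax3_1429, Pax7_522 and Pax7_595 the ratios of the runs ran from 0.869 to 1.06. Differences of that size between runs of 1 line limit what a single library can show at these fragments, inside and outside islands.

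**Figure D3:**
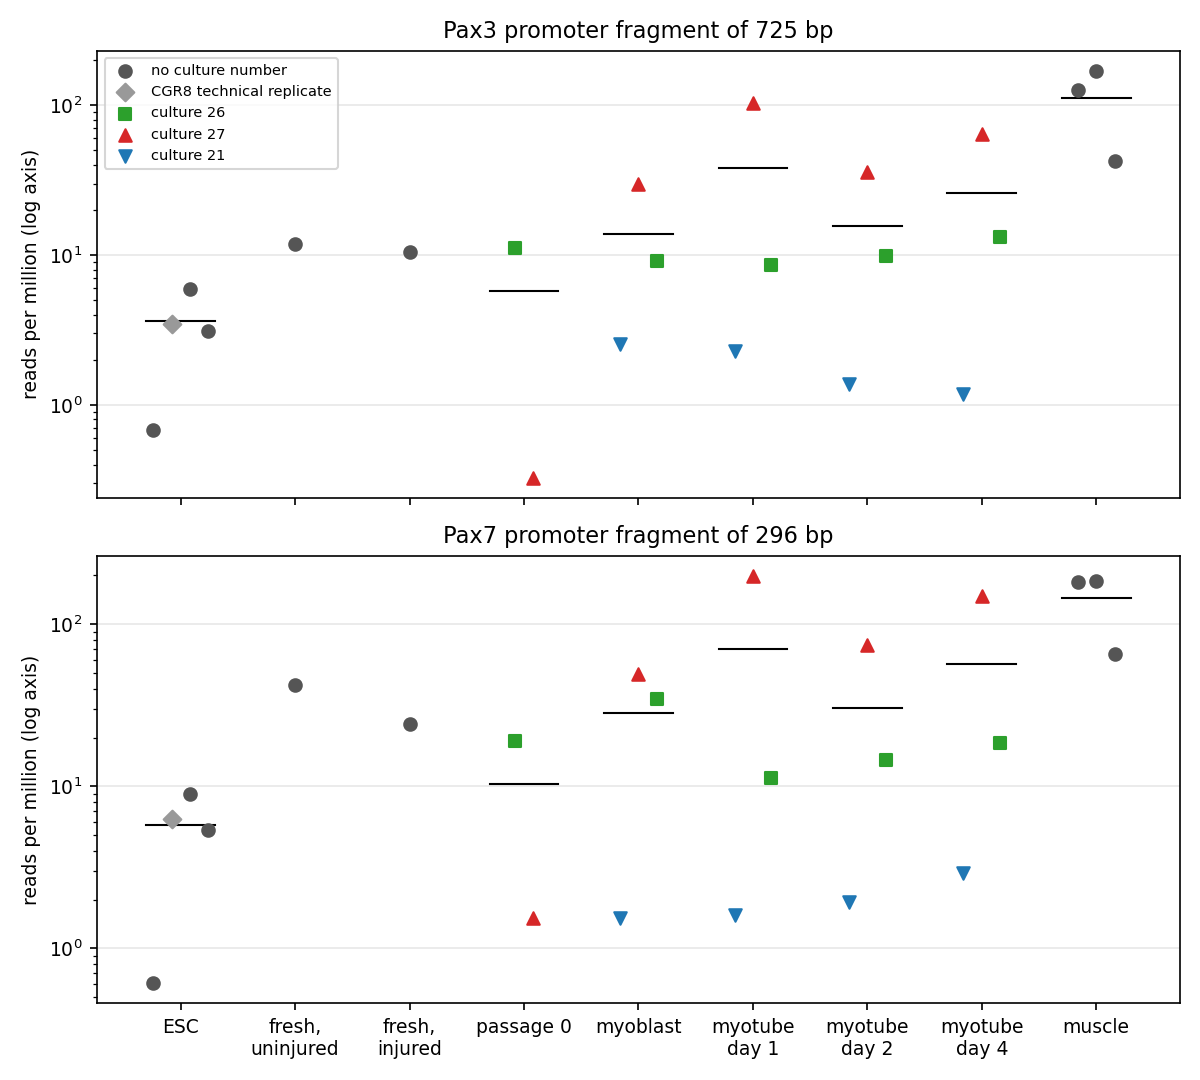
Level of Pax3_725 (top) and Pax7_296 (bottom) in each of the 23 libraries (CPM, log axis), by group; symbols mark the cultures and the CGR8 technical replicate, and lines are group means over 3 ESC lines, 3 libraries or 2 passage 0 libraries. Muscle libraries lie at 42.1 to 169 CPM for Pax3_725 and 65.9 to 185 for Pax7_296, and culture 27 lies above culture 21 at every stage from the myoblast on.

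At Pax3_725 and Pax7_296 culture 27 was highest and culture 21 lowest at each stage from the myoblast on. At Pax3_725 culture 27 read 103, 35.9 and 64.0 CPM at days 1, 2 and 4, culture 26 read 8.62, 9.85 and 13.2, and culture 21 read 2.29, 1.38 and 1.18. Culture 27 was 11.8 to 54.0 times above culture 21 over the 4 stages. At Pax7_296 culture 27 read 198, 74.5 and 148 CPM, culture 26 read 11.3, 14.6 and 18.5, and culture 21 read 1.61, 1.93 and 2.92. There the ratio of culture 27 to culture 21 ran from 32.0 to 123. Other fragments had another order, since Pax7_522 was lowest in culture 26 and Pax3_1429 highest in culture 21 at all 4 stages. The passage 0 cells numbered 27 had the lowest Pax3_725 level of all 23 libraries. All promoter islands together moved with the cultures too, at 11494 to 38277 CPM in culture 27 from the myoblast stage on, 5336 to 8939 in culture 26 and 2916 to 4225 in culture 21, and their part in these levels was not tested.

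No Pax3 or Pax7 fragment passed in myotubes against myoblasts, where the background is also 0% of all fragments. At day 1, 0 of 10 tested fragments were called by edgeR at an adjusted p under 0.05, with 0% of 22016 fragments genome-wide, 6 of them at an unadjusted p under 0.05. At day 2 it was 0 of 8, with 0% of 21781 and 64 unadjusted, and at day 4 it was 0 of 10, with 0% of 22438 and 83 unadjusted. No Pax3 or Pax7 fragment had an unadjusted p under 0.05 at any of the 3 days, and DESeq2 called 0 fragments each time. These fits were unpaired, so each SE holds the differences between cultures. From myoblasts to day 1, Pax7_296 went from 49.3 to 198 CPM in culture 27. It went from 34.4 to 11.3 in culture 26 and from 1.54 to 1.61 in culture 21. The log2 changes of Pax3_725 were 1.89 ± 1.34 (SE), 0.65 ± 1.23 and 1.02 ± 1.14 at days 1, 2 and 4, and those of Pax7_296 were 1.71 ± 1.60, 0.55 ± 1.43 and 1.05 ± 1.28. All 6 were negative, from -0.63 to -1.80, when the myotube library of culture 27 was left out while its myoblast library, the highest of the 3, stayed in, a choice that favours a negative sign. With the culture as a replicate block, 0 Pax3 or Pax7 fragments passed at each day, and genome-wide 39 fragments passed at day 4.

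Muscle against ESC gave most calls. Of 10 Pax3 and Pax7 fragments that passed the low-count filter, edgeR called 8, 7 higher in muscle and 1 lower, where 59.1% of all 22980 tested fragments were called, 24.4% higher and 34.6% lower. With library totals in place of TMM scaling the genome-wide split moved from 5616 higher and 7959 lower to 3643 and 11063, and the median log2 change of all fragments from -0.34 to -1.17. A filter on low counts keeps fragments that are high in 1 group, so the share called is read against that of all fragments that passed it. The median log2 change was 2.66 over the 10 fragments. For the 5 of them in islands it was 5.59, and all 5 were higher, beside 68.9% higher and a median of 3.59 for all 915 island fragments tested.

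Of the 8, Pax7_79, Pax3_725, Pax7_296 and Pax7_219 had the highest log2 changes. Pax7_79 passed the filter only through its muscle reads (217, against 6 in ESC, 9 in myoblasts and 7 in never cultured precursors). That fixed its direction in these comparisons, so its calls and its place among the islands counted as higher carry no weight. Pax3_725 rose by 5.90 ± 0.71 on the log2 scale (± SE, edgeR adjusted p = 0.000132), with 112 ± 64.4 CPM in muscle against 3.62 ± 2.12 in ESC (mean ± SD, n = 3 each). Pax7_296 rose by 5.59 ± 0.63 (edgeR adjusted p = 8.99e-05), from 5.73 ± 3.03 to 145 ± 68.2 CPM. Pax7_79 rose by 6.43 ± 0.85 and the intronic Pax7_219, an island edge 9083 to 9301 bp inside the gene, by 5.39 ± 0.72. All muscle libraries were above all ESC lines at these 4. Pax3_1390, which lies 502 to 1891 bp inside the gene and holds coding sequence, rose by 2.54 ± 0.76 (edgeR adjusted p = 0.0155), and its groups overlapped (1.66 to 4.13 against 0.239 to 1.88 CPM). That call was lost with library totals (1.65, edgeR adjusted p = 0.0816), with all groups in one fit (0.0921), without E14Tg2 (0.0589) and without muscle library 2 (0.0535). Pax3_1390 passed the filter only through its muscle libraries, as ESC had a median of 0.408 CPM. Its call and its place among the islands counted as higher therefore carry no weight either. With the C57BL/6J library as the only muscle sample, the spread came from the ESC lines and the lone library was assumed to vary like them. Then 5 of 13 Pax fragments passed, all higher, where 3725 of 32879 fragments passed higher and 2342 lower, with Pax3_725 at 4.31 and Pax7_296 at 4.29.

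Island fragments rose in muscle as a class, so the Pax fragments were also set against islands alone. In a fit of 1082 island fragments with their own scaling, chosen after the other values were seen, 30.1% were higher in muscle and 41.2% lower. Pax3_725 was higher there by 2.69 (edgeR adjusted p = 0.000170), Pax7_296 by 2.43, Pax7_79 by 3.29 and Pax7_219 by 2.18, and Pax3_1390 stood at -0.44. In counts, Pax3 promoter islands took 389 to 519 of every 100000 promoter island reads in muscle (469 ± 70.2, mean ± SD, n = 3) and 36.8 to 121 in ESC (74.2 ± 42.8, n = 3). Pax7 took 588 to 749 in muscle (649 ± 87.2) and 47.7 to 141 in ESC (95.3 ± 46.4). The muscle means were 6.32 and 6.81 times those of ESC, with an exact 2-sided permutation p of 0.1 each, the smallest that 3 against 3 can give and one of 30 such tests (Benjamini-Hochberg adjusted 0.273). All promoter islands together were 3.82 times higher in muscle, and their part in the rise of the Pax fragments was not tested beyond these ratios.

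**Figure D4:**
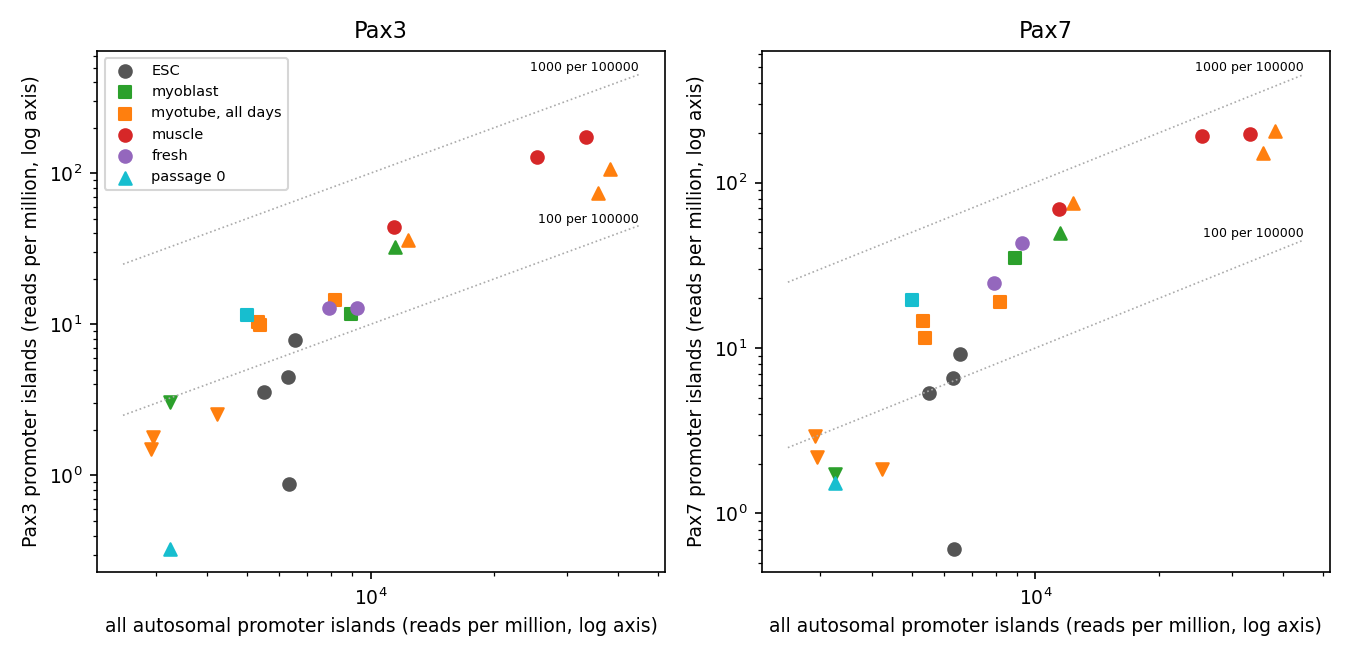
Summed level of the Pax3 (left) and Pax7 (right) promoter islands against that of all autosomal promoter islands in each of the 23 libraries (CPM, both axes log); dotted lines mark 100 and 1000 per 100000 promoter island reads, and down triangles, squares and up triangles are cultures 21, 26 and 27. Both sums rise with the total over islands, and the 3 muscle libraries lie at 389 to 519 per 100000 for Pax3 and 588 to 749 for Pax7.

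Outside the islands the fragments went different ways. The shore Pax7_595, which holds coding sequence 3366 to 3960 bp inside the gene, stood at 72.5, 113 and 41.1 CPM in muscle and at 11.7 to 26.1 CPM in the 4 ESC libraries, a rise of 2.74 ± 0.55 (edgeR adjusted p = 0.00217). That call was lost with all groups in one fit (0.149) and with the C57BL/6J muscle library alone (0.0700). Pax7_522 lies in annotated untranslated sequence at the far end of the gene and was the fragment with most reads, 23122 in all. It rose by 2.57 ± 0.47 (edgeR adjusted p = 0.00143), with 147, 162 and 72.6 CPM in muscle against 32.6 to 47.4 in ESC. Pax7_2582, an intronic fragment, fell by 3.23 on the log2 scale (SE 0.70, edgeR adjusted p = 0.00326), from 5.82 ± 3.38 to 0.335 ± 0.228 CPM, with no overlap. It passed the low-count filter only through its ESC reads (193, against 10 in muscle). That fixed its direction, so its call carries no weight.

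The Pax3 shore Pax3_1429, in the gene 1892 to 3320 bp from the start, was not called. It held 8.69, 5.13 and 8.06 CPM in muscle and 11.6 to 19.1 in ESC, which do not overlap, yet TMM scaling left a log2 change of -0.20 ± 0.45 (edgeR adjusted p = 0.714). With library totals it was -0.99 (0.0999). In the authors' deposited table it was -1.19 with an adjusted p of 0.00114 (pooled dispersion). The same authors' deposited table gave 4.87 for Pax3_725 and 4.60 for Pax7_296, with adjusted p of 8.41e-06 and 1.19e-07. Pax7_1286, an intronic fragment, was not called either, at 31.0, 34.3 and 4.88 CPM in muscle and 0.885 to 21.4 in ESC.

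Against myoblasts, muscle was higher at Pax3_725, Pax7_296, Pax7_79, Pax7_219 and Pax7_595. Of 11 tested, edgeR called 6 (5 higher, 1 lower), where 31.1% of all 20274 fragments were called, 13.7% higher and 17.4% lower (2779 and 3530, and 1283 and 4183 with library totals). The log2 changes were 3.80 ± 0.91 for Pax3_725 (edgeR adjusted p = 0.0172), 3.10 ± 0.99 for Pax7_296 (0.0408), 5.10 ± 1.00 for Pax7_79, 3.79 ± 1.00 for Pax7_219 and 3.62 ± 0.97 for Pax7_595. The Pax7_296 call was lost with library totals (0.0874) and among fragments under 2000 bp (0.0518). With all groups in one fit, Pax7_79 alone of the Pax fragments passed, 1 of 16, where 1602 of 32421 fragments were higher and 4143 lower. Pax7_2582 was lower by -2.58 ± 0.64, a call lost without the low-count filter (0.152). It passed that filter only through its myoblast reads (80, against 10 in muscle), so its direction was fixed and its call carries no weight. For Pax3_1390 the difference was 1.16 (edgeR adjusted p = 0.252) and for Pax3_1429 it was -0.11 (0.906), neither of which passed. Muscle and myoblast libraries did not overlap at any of the 6. In the fit of island fragments alone, 0 of 5 passed (0.509% higher of 786), with Pax3_725 at 1.21 and Pax7_296 at 1.06. Of the 5 island fragments tested 4 were higher, beside 30% of all 837 island fragments. As a share of all promoter island reads, the muscle means were 2.77 times those of myoblasts for Pax3 (169 ± 99.5 per 100000 in myoblasts) and 2.22 times for Pax7 (292 ± 208), without overlap and with an exact 2-sided permutation p of 0.1 each, the smallest possible. Without muscle library 1 or without muscle library 2, 0 of 12 Pax fragments passed, as did 0 of all 23111 and 23481 fragments. Without culture 26, 1 of 11 passed, where 1069 of 21872 fragments were higher and 2126 lower, and without culture 27, 3 of 11, where 1557 of 21303 were higher and 1940 lower. The C57BL/6J muscle library alone, assumed to vary like the myoblasts, gave 0 calls, for the Pax genes and for all 28171 fragments, with Pax3_725 at 2.30 and Pax7_296 at 1.87.

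The never cultured precursors were also below muscle. Of 11 tested fragments edgeR called 7 (6 higher in muscle, 1 lower), where 42.6% of 23204 were called, 18.8% higher and 23.7% lower (4372 and 5506, and 1995 and 9144 with library totals). Pax3_725 was higher in muscle by 4.30 ± 0.76 (edgeR adjusted p = 0.00717), Pax7_79 by 4.77 ± 0.84, Pax7_219 by 3.33 ± 0.72, Pax7_296 by 3.05 ± 0.67 and Pax7_595 by 2.88 ± 0.64, with no overlap of libraries. Pax7_522 was higher by 2.03 ± 0.58 with 1 muscle library below the uninjured precursors (72.6 against 74.4 CPM), a call lost with library totals (edgeR adjusted p = 0.0802). Pax7_2582 was lower by -1.89 ± 0.61, a call lost without the low-count filter (0.166) and with DESeq2 (0.0943). It passed that filter only through its precursor reads (32, against 10 in muscle), so its direction was fixed and its call carries no weight. With all groups in one fit 0 Pax fragments passed, where 422 of 32421 fragments were higher and 1551 lower. Among island fragments alone 2 of 5 passed (12.6% higher of 965), and Pax7_296 stood at 1.08 (edgeR adjusted p = 0.0869). As a share of promoter island reads, the muscle means were 3.14 times (Pax3) and 1.68 times (Pax7) those of the precursors, without overlap, at an exact permutation p of 0.2, the smallest for 3 against 2. With the uninjured precursors left out, 0 of 13 Pax fragments and 0 of 24689 in all passed, and with the injured ones left out, 0 of 11 and 5 of 23940. Without muscle library 3, 11 of 11 passed, where 5699 of 22253 fragments were higher and 7402 lower. The C57BL/6J muscle library alone, assumed to vary like the 2 precursor libraries that gave the spread, had 6 calls of 12, where 3606 of 25008 fragments were higher and 4073 lower. Among them were Pax3_725 at 2.53 and Pax7_296 at 1.58, and at Pax7_30273 that library had 0.0995 CPM against 8.26 and 15.1 CPM.

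**Figure D5:**
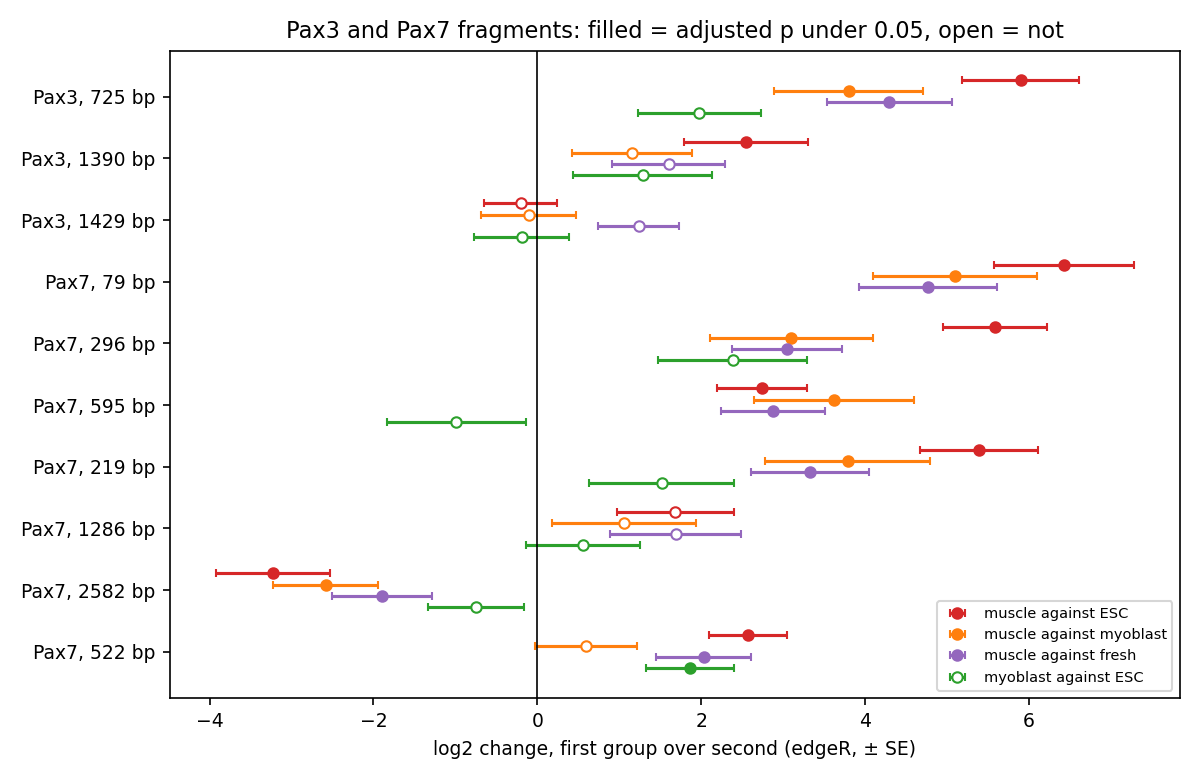
Log2 change ± SE (edgeR) of the 10 fragments tested in muscle against ESC, in 4 comparisons, first group over second; filled points passed at an adjusted p under 0.05. In muscle against ESC (red) 8 of 10 are filled and 1 of these, Pax7_2582, lies below 0, while in myoblasts against ESC (green) only Pax7_522 is filled.

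Muscle against day 4 myotubes gave no call. EdgeR called 0 of 10 Pax fragments and 0% of 19353 genome-wide, with 2 and 4613 at an unadjusted p under 0.05, while DESeq2 called 2231 fragments in all and 2 of the 10, Pax3_725 at 3.00 (DESeq2 adjusted p = 0.0376) and Pax7_79 at 3.82 (0.00995). Pax7_79 passed the low-count filter here too only through its muscle reads (217, against 37 at day 4), so that DESeq2 call carries no weight. By edgeR the changes were 2.82 ± 1.13 at Pax3_725 and 2.06 ± 1.10 at Pax7_296 (adjusted p = 0.184 and 0.274). The day 4 library of culture 27, with 64.0 and 148 CPM, lay within the muscle range. Without culture 21 at day 4, 2 of 12 Pax fragments passed, 1 higher and 1 lower, where 523 of 22122 fragments were higher and 1867 lower.

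Myoblasts against ESC gave 1 call among 11 tested Pax fragments, where 19.9% of 25152 fragments were called. It was Pax7_522, at 254, 91.7 and 57.9 CPM in cultures 27, 21 and 26 against 32.6 to 47.4 in ESC, a rise of 1.86 ± 0.54 (edgeR adjusted p = 0.0378) that was lost with library totals (0.0551), without culture 27 (0.0970), without RD1 (0.139), without E14Tg2 (0.170) and with the CGR8 technical replicate left out (0.0708). Pax3_725 stood at 1.98 ± 0.75 and Pax7_296 at 2.39 ± 0.91 (edgeR adjusted p = 0.0985 and 0.0991). Without culture 21 both passed at 2.59 and 3.10 (0.00473 and 0.000540), where 3922 of 28173 fragments were higher and 3499 lower. Without culture 26 they stood at 2.315 and 2.255 (0.130 and 0.209), and without culture 27 at 1.09 and 2.00 (0.328 and 0.226). In the fit of island fragments alone they stood at 0.95 and 0.97 (0.432 and 0.385). Day 4 myotubes against ESC gave 0 calls of 10, where 11.3% of 25497 fragments were called. Of the 10 Pax fragments, 4 had an unadjusted p under 0.05, beside 23.5% of all 25497. DESeq2 called 4 of the 10, and 4592 of 25325 fragments genome-wide.

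Passage 0 cells and never cultured precursors showed no call against late myoblasts. At passage 0, edgeR called 0 of 11 Pax fragments and 0% of 23419 in all, with 1 and 665 at an unadjusted p under 0.05, and DESeq2 called 3 fragments in all. The cells numbered 27 at passage 0 were far below myoblasts of culture 27 at Pax7_296 (1.53 against 49.3 CPM), and those of culture 26 less so (19.0 against 34.4). In a fit of cultures 26 and 27 alone with the culture as a replicate block, which leaves culture 21 out, 3 of the Pax fragments passed, all lower at passage 0, namely Pax7_296 at -2.41 (edgeR adjusted p = 0.0233), Pax7_219 at -2.87 (0.0415) and Pax3_1390 at -4.07 (0.0331). In that fit 156 fragments were higher and 878 lower genome-wide. These 3 Pax fragments all overlap islands. In the main fit the median log2 change at passage 0 was -1.62 over all 843 island fragments tested and -1.35 over the 5 Pax ones. For never cultured precursors, edgeR called 0 of 11 and 0% of 23679, with 0 and 836 at an unadjusted p under 0.05, and DESeq2 called 27 in all. Pax3_725 stood at -0.34 ± 0.77 and Pax7_296 at 0.20 ± 0.97.

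The remaining fragments with reads were uneven between libraries. Pax7_30273, a gene body fragment with coding sequence, has a length that PCR hardly amplifies, yet had 2460 reads. It stood at 21.8, 35.0, 1.18 and 83.2 CPM in culture 27 at the myoblast stage and days 1, 2 and 4, at 9.28 in the passage 0 cells numbered 27, at 16.6 and 34.0 in muscle libraries 1 and 2, and at 15.1 and 8.26 in the never cultured precursors. In every other library it was at or below 1.12 CPM, and in those of culture 26 at or below 0.390. Pax7_1117, an island and shore fragment with coding sequence, reached 13.9 CPM in culture 27 at day 4 and was at or under 3.29 CPM elsewhere. Pax7_3783, at the far end of the gene, was highest in E14Tg2 at 3.82 CPM. The other fragments above 1 CPM in some library, Pax3_42395, Pax7_11394, Pax7_1781 and Pax7_1929, stayed at or under 3.19 CPM.

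Across 22 libraries, with the runs of CGR8 summed, the values of Pax3_725 and Pax7_296 on the log2(CPM + 1) scale had a Pearson r of 0.969. The libraries share their depth, culture and overall island level, and over 9445 fragments compared, 11.4% had an r of 0.8 or more with Pax3_725 and 11.8% with Pax7_296. The fragments most like Pax3_725 overlapped Ppfibp2 (r = 0.987), Vars (0.986), Erbb4 (0.986), Eif3l (0.985) and G3bp1 (0.985). Those most like Pax7_296 overlapped Hoxc5 (0.995), Ndufb9 (0.994), Slc2a1 (0.993), Ptprs (0.993) and Gphn (0.993). Pax7_219 had an r of 0.964 and 0.961 with the leading fragments of Pax3 and Pax7, and Pax3_1429 one of -0.37 and -0.48.

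The other genes of the Pax family and of the myogenic network were read from 3 lists. The other 7 Pax genes had 76 fragments, of which 9 from 5 genes were tested in muscle against ESC, with 5 higher and 1 lower and a median log2 change of 1.24, beside 24.4% higher, 34.6% lower and -0.34 over all fragments. Island fragments alone had 68.9% higher and a median of 3.59, and the lists were not split by CpG class. A promoter island fragment of Pax6, the eye and forebrain regulator (chromosome 2, 105521641 to 105522215), rose by 5.50 ± 0.71 (edgeR adjusted p = 0.000191), from 6.65 ± 3.50 to 157 ± 93.4 CPM. Another Pax6 fragment outside islands (105536468 to 105536659) was lower by -1.02 ± 0.38. In muscle against myoblasts 4 of 9 Pax family fragments were higher and 1 lower (13.7% and 17.4% of all fragments), and in muscle against never cultured precursors 5 of 9 and 1 (18.8% and 23.7%). Of island fragments, 30% and 51.4% were higher in these comparisons. Pax1, a regulator of vertebral column formation, stood in its promoter (chromosome 2, 147187587 to 147187974) at 274 ± 129 CPM in muscle and 41.8 ± 13.2 in precursors (n = 2).

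Of the 24 myogenic regulators around Pax3 and Pax7, 8 of 136 fragments were tested in muscle against ESC, with 5 higher and 1 lower and a median of 1.96 (24.4%, 34.6% and -0.34 over all fragments, and 68.9% higher with a median of 3.59 over island fragments). Six4, a partner of the Pax genes in limb muscle precursors, rose at an island fragment (chromosome 12, 74212106 to 74212828) by 4.60 ± 0.67, from 4.96 ± 3.98 to 62.4 ± 23.8 CPM. In myoblasts against ESC 1 of 8 was higher and 1 lower (8.22% and 11.7% of all). A 229 bp fragment at Myf5, a target of both factors (chromosome 10, 106921116 to 106921344), was lower in myoblasts by -3.28 ± 0.72 (edgeR adjusted p = 0.0102), at 5.50 ± 4.41 CPM against 54.3 ± 4.56 in ESC, and in muscle it stood at 31.5 ± 11.1. Muscle against myoblasts gave 2 higher and 1 lower of 8 (13.7% and 17.4% of all), the higher including Myf5 at 3.23 ± 0.81.

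Of the 22 satellite cell genes, 8 had a fragment tested in muscle against ESC. There 4 of 10 fragments were higher and 4 lower, with a median of 0.07 (24.4%, 34.6% and -0.34 over all fragments). In myoblasts against ESC it was 2 and 2 of 13 (8.22% and 11.7% of all). In muscle against myoblasts it was 2 and 2 of 12 (13.7% and 17.4%), and in muscle against never cultured precursors 3 and 3 of 12 (18.8% and 23.7%). An island fragment of Cdh15, the M-cadherin of satellite cells (chromosome 8, 125389045 to 125389275), had no read in the 3 muscle libraries and 7.70 ± 6.95 CPM in ESC. A fragment at Foxo3, a factor that keeps satellite cells quiescent (chromosome 10, 41970969 to 41971309), stood at 300 ± 177 CPM in muscle, 42.6 ± 30.9 in myoblasts and 0.0544 ± 0.0942 in ESC. Against ESC, Cdh15 passed the low-count filter only through ESC in the muscle comparison, and Foxo3 only through muscle or myoblasts. Their directions against ESC were fixed by that, so those calls carry no weight. In the 6 comparisons where edgeR called no fragment genome-wide, the 3 lists had no call either. In day 4 myotubes against ESC 1 satellite cell fragment was higher, Foxo3, and 1 lower, Cd34, of 12 tested (5.42% and 5.93% of all), and none of the other 2 lists.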

How the data were processed

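Libraries were aligned to mm9 with Bowtie 0.11.3 and compared with DESeq (version not given in the sources used here), per the submitters' processing notes. The authors deposited raw read counts per fragment, which were used here for 23 libraries of 9 groups, and 184 other per-sample columns were left out. The authors' deposited tables of comparisons give adjusted p-values and log2 fold changes, which were copied for the Pax fragments. Of 173430 fragments, 21542 had no read in these libraries, and the median length was 6711 bp.

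CPM is reads per 1000000 of the library total (6237851 to 14696855 reads). Promoter fragments overlap the stretch between 2000 bp before and 500 bp after a GENCODE M1 (mm9) start. Each of 11 comparisons was fitted over all fragments with edgeR 4.0.16 (R 4.3.3) on the groups compared alone, by its quasi-likelihood test after TMM scaling. Low fragments were removed by filterByExpr (minimum count 10), p-values were adjusted by Benjamini-Hochberg with a threshold of 0.05, and the procedure was tested on simulated data. DESeq2 1.42.0, other scalings and filters, all groups in one fit, short fragments alone, each library left out and a replicate block were alternatives. The fits of island fragments alone and of the C57BL/6J muscle library alone were chosen after seeing the data.

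Fragments with 10 CPM in some library or tested in a comparison are described singly. From the gene lists at most the called fragment with the smallest p per direction is named. Likeness of pattern is Pearson's r over fragments under 2000 bp with a mean of at least 1 CPM. The members and lists were chosen with earlier results of these data known.

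Myotubes and myoblasts share cultures by their labels, and deviations from the group means of same-culture libraries had correlations of 0.362 to 0.844. Passage 0 libraries were paired by culture number (0.228). Other groups share numbers alone. One fragment's sequence and one listed gene are not reported here.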

Additional observations from a re-analysis of the deposited data

How the results depend on the processing

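Counts of called Pax3 and Pax7 fragments moved with the setting, and so did those of all fragments, given here or with the comparisons above. In myoblasts against ESC (1 called) DESeq2 and no low-count filter gave 3 each, while library totals, all groups in one fit and the technical replicate left out gave 0 each, and leaving out 1 library gave 0 to 4. In day 4 myotubes against ESC (0) DESeq2 and no filter gave 4 each and leaving out 1 library 0 to 3. Muscle against ESC (8) gave 5 with the C57BL/6J muscle library alone, and 8 to 11 with 1 library left out. Muscle against myoblasts (6) gave 1 with all groups in one fit, 0 with the C57BL/6J library alone and 0 to 6 with 1 library left out. Muscle against day 4 myotubes (0) gave 2 with DESeq2 (761 higher and 1470 lower of 19289 genome-wide) and 0 to 2 with 1 library left out. Muscle against never cultured precursors (7) gave 0 with all groups in one fit and 0 to 11 with 1 library left out.

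With a replicate block, muscle against myoblasts gave 2 calls (844 fragments higher and 587 lower of 20274 genome-wide), but those samples share only a number. With the block by culture, passage 0 against myoblasts gave 3 (156 fragments higher and 878 lower of 22202 genome-wide). The block changed no other count of Pax fragments called. No paired analysis was possible for the never cultured precursors because their libraries share no number series with the other groups.

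Some values changed sign. Pax3_1429 in muscle against ESC became 0.36 without CGR8 and 0.06 without muscle library 2, and Pax3_1390 -0.44 among islands alone. Without culture 27 at the day compared, Pax3_725 became -0.97, -1.06 and -0.63 and Pax7_296 -1.80, -1.59 and -1.07 at days 1, 2 and 4, with the high myoblast library of that culture still in the other arm. Among islands alone Pax3_725 became -0.46 at day 4 against myoblasts and Pax7_296 0.12 at passage 0. In precursors against myoblasts Pax3_725 became 0.55 without culture 27, and Pax7_296 -0.34 without culture 21 and -0.37 without the uninjured library. With 1 library left out at a time, the other end of the range was -0.33 for Pax3_1429. For Pax3_725 it was 2.83, 1.71 and 1.93 at days 1, 2 and 4 and -0.77 in precursors. For Pax7_296 it was 2.27, 1.32 and 1.56 at these days and 0.63 in precursors. The cause was not tested. Levels under about 1 CPM rest on few reads and limit what could be detected.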
